A study of Homo sapiens with 8 samples.

Results

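The 33 genes described here encode the 2 machines that cleave RNA behind RNA polymerase II (Pol II), the Integrator complex and the mRNA cleavage and polyadenylation complex, together with the poly(A) polymerases and termination factors that act with them. They were taken from a list of gene symbols, 33 of the 63677 genes in the deposited counts, and all 33 passed the filter on low counts. Their RNA was measured by RNA-seq in the multiple myeloma (MM) cell line JJN3 and in libraries labelled as the MM line H929, grown with THZ1 for 24 h at 50 nM or with the vehicle DMSO. THZ1 binds the kinase CDK7 covalently and inhibits it. Each line and treatment had 2 libraries, which makes 8, and the labels name no genetic change in any group. Nothing in the labels says that the 2 libraries of a group came from separate cultures, so the p-values measure the spread between these libraries, which may be technical.

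Every mRNA ends with a cut and, except for replication-dependent histone mRNAs, a poly(A) tail. The cleavage and polyadenylation specificity factor (CPSF) reads the AAUAAA signal and cuts the RNA, cleavage factor Im (CFIm) and the cleavage stimulation factor (CstF) bind the flanking sequences, and poly(A) polymerase adds the tail. Integrator cuts the 3′ ends of small nuclear RNAs and terminates Pol II near many promoters, using an endonuclease related to that of CPSF. CDK7 phosphorylates the C-terminal domain (CTD) of Pol II, the platform on which several of these factors gather, so the comparison asks how the RNAs of the factors themselves responded to THZ1.

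The libraries held 17476443 to 19194371 counts on genes, and a count of 3, the most that a count of 0 allows, stood for 0.154 to 0.183 CPM (counts scaled to the same library total). That limit covers counting error only. Replicates correlated at 0.994 to 0.997 (log2 CPM across genes, which are not independent). DMSO and THZ1 libraries correlated at 0.966 to 0.973 in JJN3 but at 0.784 to 0.810 in the libraries labelled H929, as low as libraries of the 2 lines did with each other (0.778 to 0.818). FGFR3, which H929 is known to overexpress with WHSC1 from its t(4;14) translocation, stood at 45 and 285 counts under the H929 DMSO label but at 14117 and 13411 under the H929 THZ1 label. WHSC1 had 6544 and 7026 against 15702 and 16276 counts, and MAF, the t(14;16) target known for JJN3, had 18006 and 16310 against 2729 and 2942. Lambda genes took 99.99% and 98.0% of the light chain V counts under the H929 DMSO label and 0.212% and 0.211% under the H929 THZ1 label. The 2 labels of H929 therefore differ in more than treatment, and the libraries labelled H929 DMSO go against their label in FGFR3, so it is in doubt that they came from H929 cells. For this reason a value between them is given as a difference between the libraries labelled H929 THZ1 and H929 DMSO, in which the treatment and the other differences cannot be told apart. Summed over 8 plasma cell genes, the level was 2070 and 2080 CPM with DMSO and 1480 and 1450 CPM with THZ1 in JJN3, and 1780 and 1920 against 6940 and 6830 CPM between the H929 labels. Some of these genes went against the sum. By mean CPM, PRDM1 rose in JJN3 from 166 to 231. Between the H929 labels CD38 (94.6 against 62.8) and MZB1 (368 against 175) were lower under the THZ1 label. Of 10 genes of other blood, stromal and epithelial cells, the sum was 74.7 to 94.3 CPM in JJN3 and 133 and 131 against 35 and 35.4 CPM between the H929 labels. Most of it was EPCAM in JJN3 and under the H929 DMSO label, and CD3E under the H929 THZ1 label. EPCAM stood at 128.7 and 124.6 CPM under the H929 DMSO label and at 0.0526 and 0.317 CPM under the H929 THZ1 label. CD3D, CD14, LYZ and KRT19 were at or below 0.323 CPM in each of the 8 libraries. The part of these differences in the results below was not tested.

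In JJN3 with THZ1, RNA of part of the cleavage core and part of Integrator was lower. RNA of the large CPSF subunit CPSF1, the poly(A) polymerase, its nuclear poly(A)-binding protein and the small subunit of CFIm was higher. Values are scaled to the other genes of a library, so lower and higher are relative to these genes. RNA per cell was not measured. With edgeR's quasi-likelihood test, with calls at an adjusted p under 0.05 (Benjamini-Hochberg) and a log2 fold change of more than 0.5 either way, 11 of the 33 genes (33.3%) were lower, beside 21.3% of all 13984 genes tested. There were 4 higher (12.1%), beside 20.6% of all genes tested. Over the 33 genes the log2 fold change had a median of -0.27, and over all genes tested it was -0.0004. By complex, 4 of 7 CPSF and scaffold genes, 4 of 12 Integrator genes, 2 of 4 CstF genes and 1 of 3 CFIm genes were lower, while 2 of 3 poly(A) genes, 1 CPSF gene and 1 CFIm gene were higher. In bulk RNA, less RNA per cell and fewer cells of a kind cannot be told apart. With total counts in place of TMM factors the split was 15 lower and 2 higher, since the median of all genes moved to -0.10.

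**Figure D1:**
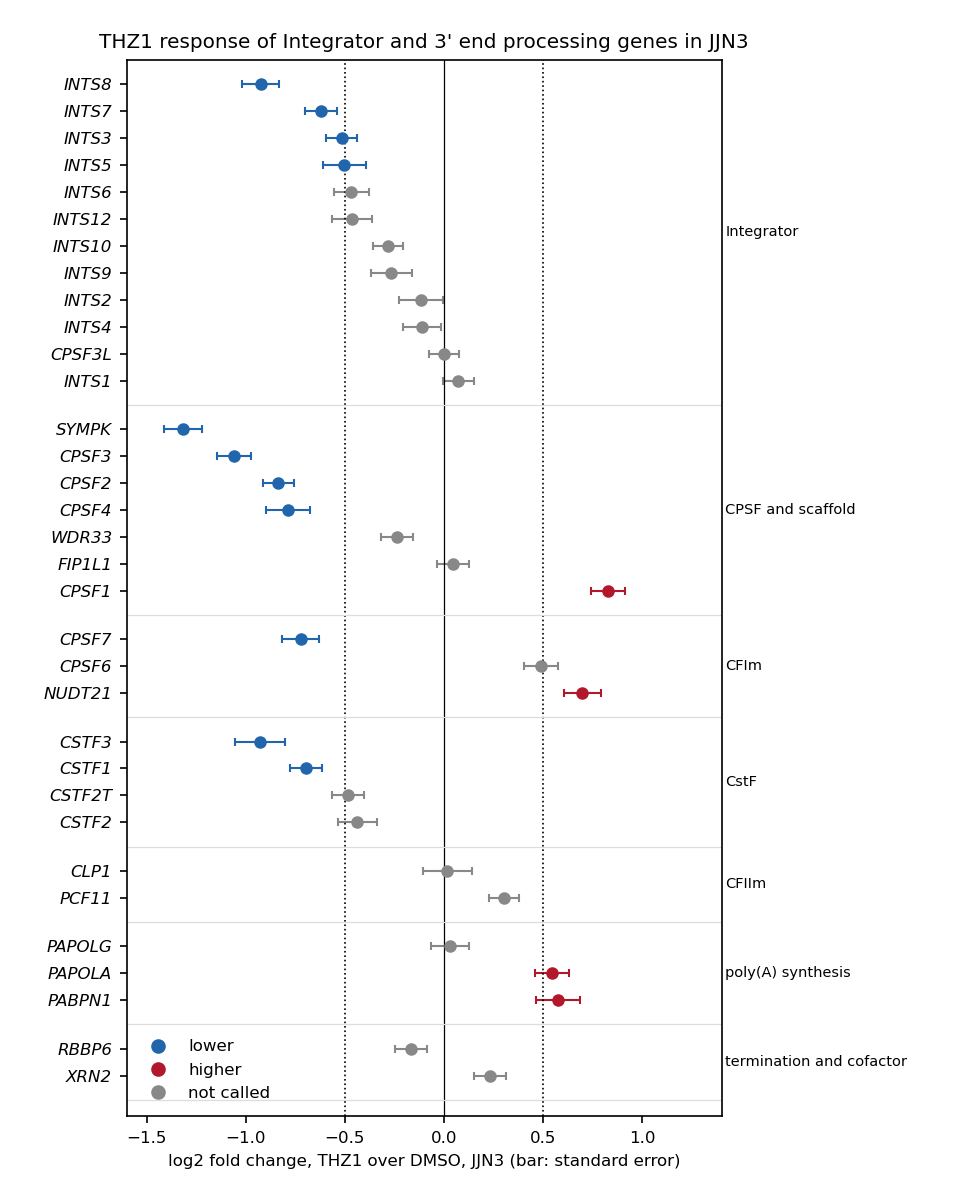
The log2 fold change of each of the 33 genes (x axis, THZ1 over DMSO in JJN3) is drawn with its standard error, grouped by complex. Blue points were called lower (11), red points higher (4) and grey points neither, and the dotted lines mark the limits of 0.5 on either side; SYMPK lies farthest to the left at -1.32 and CPSF1 farthest to the right at 0.83.

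Promoter sequences of 28 of the 33 genes were in the set of RefSeq promoters used here (GRCh38.p14), each from 250 bases before to 50 bases after the start of the gene. That set held none for INTS5, INTS8, INTS9, INTS10 and CPSF1, which does not mean that RefSeq lacks these genes. Those of SYMPK, CPSF3 and CPSF7, which were lower after THZ1, and of NUDT21 and PAPOLA, which were higher, are shown 5′ to 3′ in the direction of the gene to let both sets be read side by side. Capitals mark the letters of the 5 motifs named after the sequences, searched on both strands, and matches that touch or overlap run together.
SYMPK promoter: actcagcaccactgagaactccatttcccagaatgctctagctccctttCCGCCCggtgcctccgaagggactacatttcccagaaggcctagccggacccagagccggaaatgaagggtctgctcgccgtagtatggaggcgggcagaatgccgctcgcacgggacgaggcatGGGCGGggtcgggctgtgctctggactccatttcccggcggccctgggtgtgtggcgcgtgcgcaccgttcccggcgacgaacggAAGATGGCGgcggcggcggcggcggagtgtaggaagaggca
CPSF3 promoter: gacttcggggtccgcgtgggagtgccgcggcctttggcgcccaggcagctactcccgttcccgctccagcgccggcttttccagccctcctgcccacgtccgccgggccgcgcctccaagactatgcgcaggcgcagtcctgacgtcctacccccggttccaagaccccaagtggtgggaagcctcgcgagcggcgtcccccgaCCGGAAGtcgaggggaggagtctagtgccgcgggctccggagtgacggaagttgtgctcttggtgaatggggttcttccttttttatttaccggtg
CPSF7 promoter: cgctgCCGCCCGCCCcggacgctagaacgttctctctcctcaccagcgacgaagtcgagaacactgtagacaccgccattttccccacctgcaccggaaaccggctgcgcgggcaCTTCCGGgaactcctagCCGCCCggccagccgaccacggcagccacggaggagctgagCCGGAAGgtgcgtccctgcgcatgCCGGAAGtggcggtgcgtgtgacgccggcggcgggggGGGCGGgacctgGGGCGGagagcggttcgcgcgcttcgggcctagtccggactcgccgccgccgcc
NUDT21 promoter: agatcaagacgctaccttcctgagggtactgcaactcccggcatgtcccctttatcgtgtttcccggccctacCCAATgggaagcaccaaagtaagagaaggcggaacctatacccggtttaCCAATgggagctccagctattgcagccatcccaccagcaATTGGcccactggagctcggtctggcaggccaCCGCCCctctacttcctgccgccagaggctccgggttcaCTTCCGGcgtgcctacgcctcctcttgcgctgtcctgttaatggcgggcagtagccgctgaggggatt
PAPOLA promoter: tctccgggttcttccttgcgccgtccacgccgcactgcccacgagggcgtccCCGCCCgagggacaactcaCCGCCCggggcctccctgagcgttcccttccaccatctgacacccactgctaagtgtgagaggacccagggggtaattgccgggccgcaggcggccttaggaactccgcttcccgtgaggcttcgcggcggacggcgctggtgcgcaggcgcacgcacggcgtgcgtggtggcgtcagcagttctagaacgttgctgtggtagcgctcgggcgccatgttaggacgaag
They lie at chr19:45863098-45863397 (minus strand), chr2:9423404-9423703 (plus), chr11:61429926-61430225 (minus), chr16:56451283-56451582 (minus) and chr14:96502126-96502425 (plus) of GRCh38.p14. The windows of the 28 genes were rich in G and C, with a median of 63.5% and 27.5 CpG, beside 58.3% and 14 CpG over all 27305 promoters. The GC box, GGGCGG, was found in 20 of 28 (71.4%; all promoters, 44.6%), the ETS family letters CCGGAAG in 10 (35.7%; all, 10.7%) and CCAAT in 13 (46.4%; all, 35.7%). TATAAA was found in 0 of 28 (all, 12.0%) and the YY1 letters, AAGATGGCG, in 2 (7.14%; all, 1.85%). The ETS letters stood in 5 of 9 promoters of lower genes, 1 of 3 of higher genes and 4 of 16 of the rest, and the GC box in 5 of 9, 3 of 3 and 12 of 16. A match of letters is a description of the window and says nothing of binding.

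Poly(A) signals of the 33 genes were read from annotated transcript ends, and cleavage itself was not measured. In the last 40 bases of the canonical transcript (GENCODE, GRCh37), AATAAA stood in 24 of the 33 genes, ATTAAA in 2 and neither in 7, beside 63.1%, 14.1% and 22.8% of 19207 coding genes. Windows of 30 bases around the signal, in capitals, are shown for 2 lower and 2 higher genes.
CPSF3 3′ end: gttacctaaAATAAAatgcattcgtttctc
CPSF4 3′ end: ttatgaaatggATTAAAgcttgttttttaa
NUDT21 3′ end: tgtcatttcAATAAAaaatatttgaaagag
PAPOLA 3′ end: tgaaaacacAATAAAaaaaaaacagcacaa
AATAAA was present in 7 of the 11 lower genes and 3 of the 4 higher genes, and ATTAAA in INTS3 and CPSF4, both lower.

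SYMPK, symplekin, is the scaffold that holds the cleavage factors together (chr19:46318668-46366452, minus strand, GRCh37). It had 2572 and 2672 counts in DMSO-treated and 960 and 877 in THZ1-treated cells in JJN3, or 135 ± 2.68 and 53.7 ± 7.03 CPM (SD, n = 2). The groups lay far apart, and the log2 fold change of -1.32 (SE 0.0957, edgeR adjusted p = 1.73e-06) was the largest fall of the 33 genes. CPSF3, the endonuclease that makes the cut (chr2:9563780-9613230, plus strand), had 2663 and 2754 counts against 1023 and 1258, a log2 fold change of -1.06 (SE 0.0846, edgeR adjusted p = 2.91e-06). CPSF2, the inactive partner of CPSF3, had 4351 and 4330 counts against 1964 and 2299 (log2 fold change -0.83, SE 0.0797, edgeR adjusted p = 8.51e-06). CPSF4, a zinc finger protein that contacts the AAUAAA signal, had 849 and 952 counts against 395 and 520 (log2 fold change -0.79, SE 0.111, edgeR adjusted p = 0.000122). In each of the 4 genes both THZ1 libraries lay below both DMSO libraries, and every library left out in turn kept the call.

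CPSF1, the large subunit on which the signal-reading part is built, moved the other way. It had 2499 and 2722 counts in DMSO-treated and 4032 and 4058 in THZ1-treated cells, or 134 ± 7.16 and 236 ± 14.8 CPM (SD, n = 2), a log2 fold change of 0.83 (SE 0.0854, edgeR adjusted p = 1.4e-05). WDR33, which reads the signal with CPSF4, and FIP1L1, which binds the poly(A) polymerase, were not called, with log2 fold changes of -0.24 and 0.05. The 7 genes of CPSF and its scaffold therefore spanned -1.32 to 0.83, with the endonuclease CPSF3 lower and the large subunit CPSF1 higher. Of the exon length of WDR33, 25.7% is shared with SFT2D3 on the opposite strand, and of that of FIP1L1, 14.6% with LNX1. Whether reads were counted by strand is not given in the sources used here, so the counts of both genes are uncertain.

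**Figure D2:**
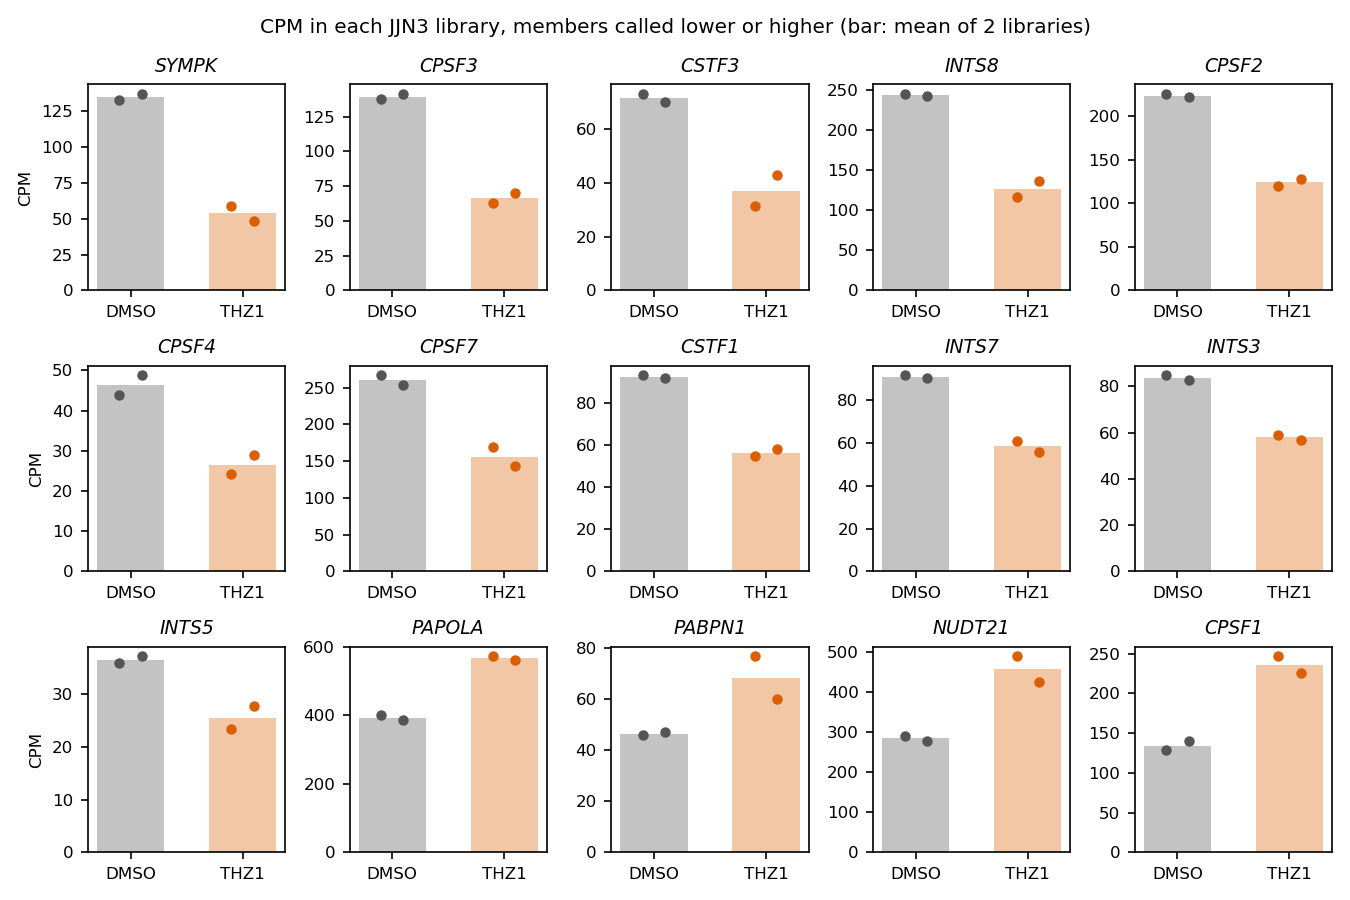
CPM in each JJN3 library (points) and the mean of 2 libraries (bars) for the 15 genes called lower or higher, in order of log2 fold change from SYMPK to CPSF1, each panel starting at 0. The 11 lower genes have both THZ1 points below both DMSO points and the 4 higher genes have both above.

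CFIm binds UGUA upstream of the cut as a dimer of NUDT21 with CPSF6 or CPSF7, and it is known for steering the choice between poly(A) sites. In JJN3 its 3 genes went apart. NUDT21 (chr16:56463045-56486111, minus strand) had 5632 and 5427 counts in DMSO-treated and 8005 and 7641 in THZ1-treated cells, or 285 ± 9.50 and 457 ± 45.7 CPM (SD, n = 2), a log2 fold change of 0.70 (SE 0.0938, edgeR adjusted p = 8.56e-05). CPSF7 (chr11:61170113-61197503, minus strand) had 5156 and 4949 counts against 2764 and 2574, a log2 fold change of -0.72 (SE 0.0935, edgeR adjusted p = 6.64e-05). CPSF6 had 3616 and 3820 counts against 4608 and 4508, a log2 fold change of 0.49 (SE 0.087, edgeR adjusted p = 0.000597). This was just under the limit, and CPSF6 was called higher with RLE factors (0.51), with a filter of 1 CPM (0.51) and without DMSO replicate 2 (0.51) or THZ1 replicate 2 (0.57). The RNAs of the 2 alternative partners of NUDT21 thus moved in opposite directions. Per kb of exon, the ratio of the CPSF6 level to the CPSF7 level was 0.526 and 0.579 with DMSO and 1.25 and 1.31 with THZ1, and that of NUDT21 to CPSF7 went from 1.11 and 1.12 to 2.95 and 3.02. The ratio of NUDT21 to CPSF6 was 2.11 and 1.93 against 2.36 and 2.30. By these ratios, which rest on annotated exon length, CPSF7 had the higher RNA level in both DMSO libraries and CPSF6 in both THZ1 libraries. Protein and the make-up of the complex were not measured.

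**Figure D3:**
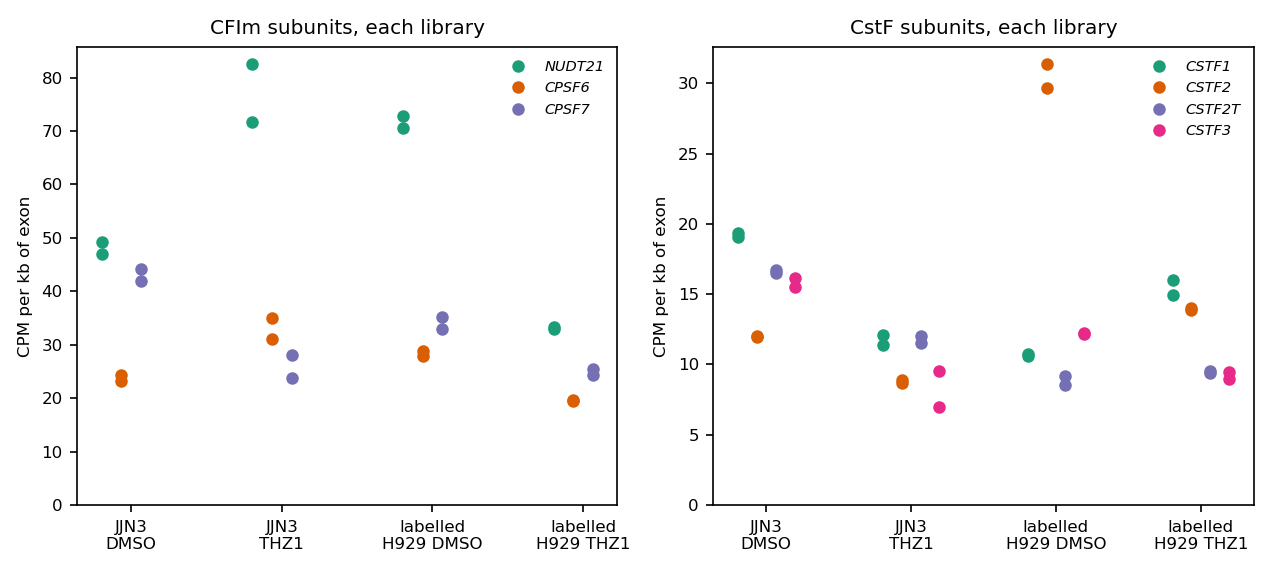
Level in CPM per kb of exon (y axis) of the CFIm genes (left) and the CstF genes (right) in each library, 2 points per gene and group. In JJN3 the points of CPSF6 and CPSF7 change places between DMSO and THZ1, and the 4 CstF genes all lie lower with THZ1; between the H929 labels NUDT21 and CSTF2 are the genes that lie farthest apart.

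CstF binds the GU-rich sequence behind the cut. CSTF3, the subunit that joins the complex together, had 1410 and 1368 counts in DMSO-treated and 512 and 773 in THZ1-treated cells, a log2 fold change of -0.93 (SE 0.126, edgeR adjusted p = 9.23e-05). Its 2 THZ1 libraries differed, at 31.3 and 43.0 CPM, but both lay below 73.0 and 70.1 CPM with DMSO. CSTF1 had 1795 and 1787 counts against 891 and 1043 (log2 fold change -0.70, SE 0.0807, edgeR adjusted p = 3.03e-05). CSTF2, the RNA-binding subunit, had 634 and 643 counts against 388 and 437, and its intronless paralogue CSTF2T had 1310 and 1343 against 776 and 886. Their log2 fold changes of -0.44 and -0.48 were under the limit by edgeR. CSTF2T was called lower by DESeq2 (-0.50), with total counts (-0.59), with no filter (-0.52) and without DMSO replicate 1 or THZ1 replicate 2 (both -0.51), and CSTF2 with total counts (-0.54). The 4 CstF genes all had a negative value. Per kb of exon the ratio of CSTF2 to CSTF2T was 0.725 and 0.717 with DMSO and 0.749 and 0.739 with THZ1, so it stayed between 0.717 and 0.749.

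The factors that add and hold the tail stood higher or were not called. PAPOLA, the main nuclear poly(A) polymerase (chr14:96967770-97033453, plus strand), had 7744 and 7513 counts in DMSO-treated and 9350 and 10106 in THZ1-treated cells, or 393 ± 11.2 and 567 ± 6.96 CPM (SD, n = 2), a log2 fold change of 0.54 (SE 0.0862, edgeR adjusted p = 0.000274). PABPN1, the nuclear poly(A)-binding protein that lets the polymerase run on, had 883 and 915 counts against 1253 and 1079 (log2 fold change 0.57, SE 0.111, edgeR adjusted p = 0.00103). PABPN1 was called with both THZ1 libraries above both DMSO libraries, but its value was 0.39 without THZ1 replicate 1. Of its exon length, 39.3% is shared with the readthrough gene BCL2L2-PABPN1, so its count is uncertain. PAPOLG, a second nuclear polymerase, had a log2 fold change of 0.03, and the ratio of the PAPOLA to the PAPOLG level per kb was 7.16 and 7.45 with DMSO and 10.2 and 10.6 with THZ1. With total counts in place of TMM factors PAPOLA (0.44) and PABPN1 (0.47) fell under the limit.

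Neither gene of cleavage factor IIm and neither gene of the termination group was called by edgeR or DESeq2, while 2 of the 4 had an unadjusted p under 0.05 by edgeR. PCF11, which binds the phosphorylated CTD, had 2152 and 2168 counts in DMSO-treated and 2248 and 2414 in THZ1-treated cells, a log2 fold change of 0.30 (SE 0.0757, edgeR adjusted p = 0.00516). CLP1, its partner, had a log2 fold change of 0.02. XRN2, the exonuclease that degrades the RNA behind the cut and helps to release Pol II, had 5764 and 6084 counts against 5755 and 6418, a log2 fold change of 0.23 (SE 0.0825, edgeR adjusted p = 0.0312). PCF11 and XRN2 had both THZ1 libraries above both DMSO libraries in CPM, with changes well under the limit. RBBP6, a cofactor of cleavage, had a log2 fold change of -0.17. Of the exon length of PCF11, 18.9% is shared, most of it with an antisense RNA, so its count is uncertain. That of CLP1 is uncertain too, with 11.9% of its exon length shared with YPEL4 on the opposite strand.

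Of the 12 Integrator genes, 4 were lower in JJN3 (33.3%, beside 21.3% of all genes tested) and 0 higher by edgeR (beside 20.6%; 0 higher by DESeq2, and 0 higher at an unadjusted p under 0.05), and 10 had a negative log2 fold change, with a median of -0.37. INTS8, which holds the phosphatase PP2A in the complex, had 4723 and 4728 counts in DMSO-treated and 1910 and 2460 in THZ1-treated cells, or 243 ± 1.56 and 127 ± 14.1 CPM (SD, n = 2), a log2 fold change of -0.92 (SE 0.0918, edgeR adjusted p = 1.1e-05). INTS7, of the backbone, had 1769 and 1758 counts against 997 and 1006 (log2 fold change -0.62, SE 0.082, edgeR adjusted p = 7.65e-05). Both genes had their THZ1 libraries clear of their DMSO libraries. INTS8 shares 20.7% of its exon length with CCNE2 on the opposite strand, so its count is uncertain. INTS3, which also serves in the single-strand DNA sensor SOSS, had 1637 and 1616 counts against 966 and 1022 (log2 fold change -0.52, SE 0.0793, edgeR adjusted p = 0.000219). INTS5 had 695 and 726 counts against 382 and 498 (log2 fold change -0.50, SE 0.109, edgeR adjusted p = 0.00218). These last 2 lay at the limit, and each lost its call under other settings, INTS3 at -0.49 without THZ1 replicate 2 and INTS5 at -0.39 without THZ1 replicate 1. INTS5 shares 9.32% of its exon length with another gene on the same strand. INTS3 shares 8.1%, the largest part with SLC27A3 on the same strand, so the counts of both genes are uncertain.

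CPSF3L, the Integrator endonuclease now named INTS11 and the paralogue of CPSF3, did not follow it. It had 1638 and 1634 counts in DMSO-treated and 1379 and 1483 in THZ1-treated cells, which was 84.3 ± 0.747 and 83.4 ± 1.32 CPM (SD, n = 2), and a log2 fold change of 0.0004 (SE 0.0768, edgeR adjusted p = 0.998). The ratio of CPSF3 to CPSF3L per kb of exon was 3.62 and 3.76 with DMSO and 1.65 and 1.89 with THZ1. By this ratio, which rests on annotated exon length, the 2 endonucleases lay closer with THZ1, CPSF3 being the one that fell. INTS9, the partner of CPSF3L, had a log2 fold change of -0.27, and INTS4, the third gene of the cleavage module, -0.11. The other 5 Integrator genes were INTS6 (-0.47), INTS12 (-0.46), INTS10 (-0.28), INTS2 (-0.11) and INTS1 (0.07), none of them called by the edgeR test or DESeq2. By edgeR, INTS6, INTS12, INTS10 and INTS9 had adjusted p-values of 0.00078, 0.00197, 0.00779 and 0.0457. In that test they missed a call only by the limit of 0.5. INTS2 and INTS1 had edgeR adjusted p-values of 0.398 and 0.454. INTS6 was called lower with total counts (-0.57) and with no filter (-0.51), and INTS12 with both (-0.57 and -0.50) and without DMSO replicate 1 (-0.57) or THZ1 replicate 1 (-0.53). Of the exon length of INTS12, 21.7% is shared, most of it with ARHGEF38 on the opposite strand, so its count is uncertain.

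Levels per length here divide CPM by all annotated exon bases of a gene, merged over its transcripts. They order genes only roughly, since a gene with many annotated exon bases can rank low. In DMSO-treated JJN3, INTS6 had 51.85 CPM over 25509 exon bases, and CSTF2 had 32.88 CPM over 2743. In DMSO-treated JJN3 the 33 genes ran from XRN2 at 89.5 ± 2.78 CPM per kb of exon (SD, n = 2) to INTS6 at 2.03 ± 0.0311. NUDT21 (48.0), CPSF7 (43.1), CPSF3 (37.8) and INTS8 (30.9) followed XRN2, and PAPOLG (3.95), INTS4 (3.82) and INTS2 (2.65) stood just above INTS6. With THZ1, XRN2 stayed first at 104 ± 0.990 CPM per kb, while CPSF7 stood at 25.9 ± 3.03, CPSF3 at 18.0 ± 1.41 and INTS8 at 16.1 ± 1.80. PABPN1 ranked 18 by its whole exon length and 9 by the part not shared with another gene.

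**Figure D4:**
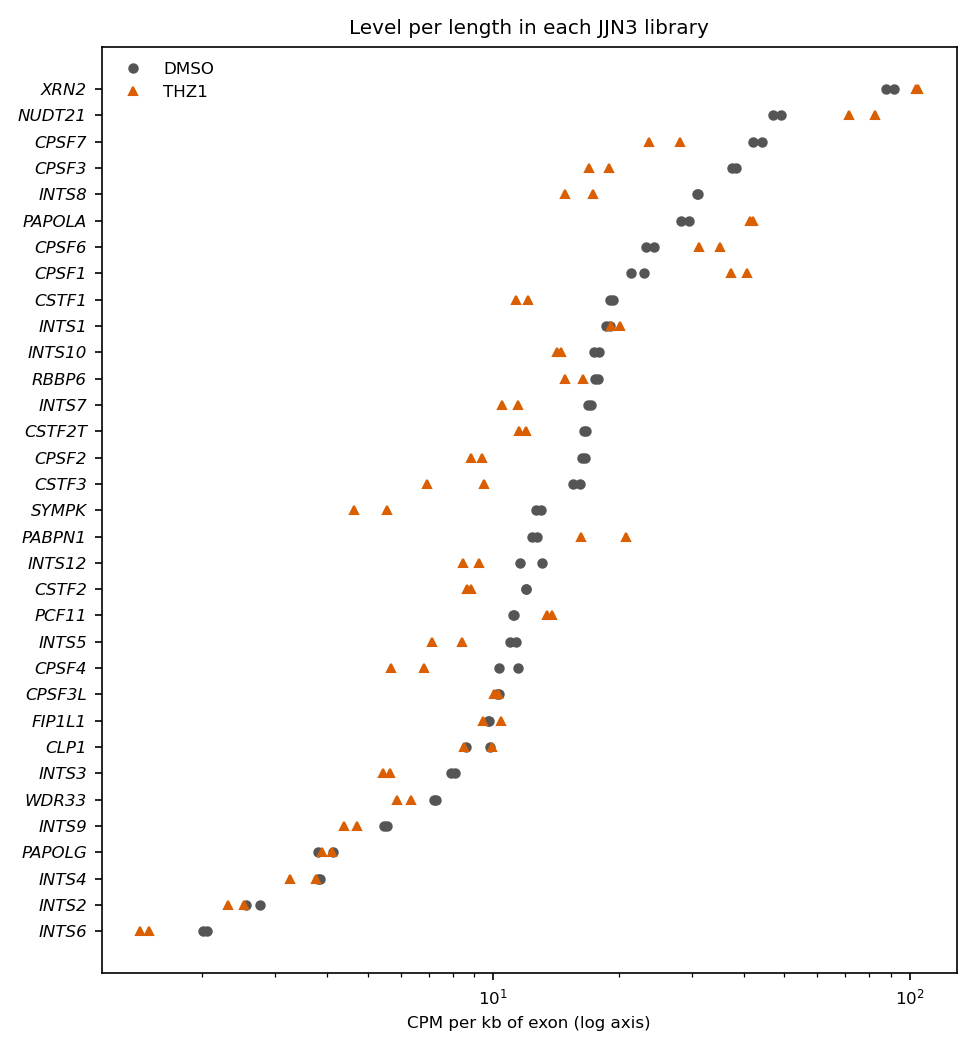
Level of each of the 33 genes in JJN3 in CPM per kb of exon (x axis, log scale), with 2 DMSO libraries as circles and 2 THZ1 libraries as triangles, ordered by the DMSO mean. XRN2 is at the top near 89.5 with DMSO and INTS6 at the bottom near 2.03, and SYMPK, CPSF3 and INTS8 have triangles far to the left of their circles.

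Gene spans were wide in each class, from 6.5 kb (INTS5, 2 exons) to 95.2 kb (INTS7) among the 11 lower genes, with a median of 47.8 kb and 18 exons in the canonical transcript. The 18 genes not called were close to that, at 40.5 kb and 17.5 exons, and the 4 higher genes had a median span of 19.7 kb. Over the coding genes tested the medians were 20.9 kb for 2636 lower, 37.2 kb for 6805 not called and 57.9 kb for 2148 higher genes. As a description across genes, which are not independent, the correlation of log10 span with the log2 fold change was -0.183 over the 33 genes and 0.159 over 11589 coding genes.

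Of 40 other genes of the pathway, listed by their roles, 9 were lower and 7 higher in JJN3 (22.5% and 17.5%, beside 21.3% and 20.6% of all genes tested), with a median log2 fold change of -0.16. Among 9 further Integrator-associated genes 5 were lower and 1 higher, the largest fall being that of VWA9, the subunit now named INTS14, with 1177 and 1156 counts against 429 and 578 (log2 fold change -1.02, SE 0.105, edgeR adjusted p = 1.44e-05). Among 14 termination and CTD factors 3 were lower and 4 higher. SSU72, a CTD phosphatase that works with SYMPK, had 5260 and 5499 counts against 2051 and 2668 (log2 fold change -1.001), and PPP1R10, the nuclear targeting subunit of phosphatase PP1, had 1703 and 1694 against 780 and 848 (log2 fold change -0.87). RPRD2 and SCAF4, which bind the phosphorylated CTD, went up. RPRD2 had 4736 and 4204 counts against 11634 and 11119, a log2 fold change of 1.54 (SE 0.104, edgeR adjusted p = 1.19e-06), and SCAF4 had 1536 and 1440 against 2485 and 2491 (log2 fold change 0.94). SRRT, which links the cap-binding complex to nuclear RNA decay, had 5493 and 5557 counts against 9093 and 7382 (log2 fold change 0.78), in a group of 9 genes with 1 lower and 2 higher. None of the 6 PAF1 complex genes and of the 2 cytoplasmic poly(A)-binding protein genes passed both limits by edgeR or DESeq2. By edgeR 2 of the 6 and 1 of the 2 had both an unadjusted and an adjusted p under 0.05. Their log2 fold changes lay within the limit of 0.5.

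Between the libraries labelled H929 the same genes were spread as widely, but not in the same order. The libraries labelled H929 THZ1 had 12 of the 33 genes lower (36.4%, beside 32.6% of 14863 genes tested) and 5 higher (15.2%, beside 33.1%), with a median difference of -0.21 on the log2 scale, beside 0.01 over all genes tested. SYMPK had 3854 and 3813 against 1480 and 1356 counts (DMSO label against THZ1 label), a difference of -1.48 (SE 0.0571, edgeR adjusted p = 1.1e-12). CPSF3 had 2926 and 2940 against 1739 and 1786 counts (-0.78). With CPSF2 (-0.56) and INTS5 (-0.54), these were the 4 genes called lower in both comparisons (12.1%, beside 10.1% of the 12787 genes tested in all 3 fits), although INTS5 (-0.48) lost its call without DMSO replicate 2, the library labelled H929 DMSO that held more FGFR3, and CPSF2 (-0.49) without THZ1 replicate 1.

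CSTF2 had 1512 and 1552 against 723 and 728 counts (DMSO label against THZ1 label) (-1.12), and NUDT21 had 8031 and 7557 against 3714 and 3743 (-1.11). These followed SYMPK among the lower genes. XRN2 had 3348 and 3201 against 1705 and 1687 counts (-0.99), and CPSF3L had 3244 and 3335 against 1851 and 1719 (-0.93). Neither XRN2 nor CPSF3L was called in JJN3. The higher genes were led by INTS3, with 1502 and 1377 against 3015 and 2792 counts (0.97), INTS2, with 419 and 432 against 671 and 703 (0.65), and INTS12, with 394 and 386 against 592 and 583 (0.55). PAPOLA had 6557 and 6142 against 6666 and 6888 counts, a difference of 0.05 that was not called, and PCF11 had -0.11. The groups overlapped in CPM for PAPOLA and were apart for the others named.

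An interaction term fitted to all 8 libraries tested the difference between the 2 comparisons, where a positive value means that the THZ1 minus DMSO value was higher in JJN3. It was called for 19 of the 33 genes (57.6%, beside 59.5% of the 12787 genes tested in all 3 fits), 11 lower in JJN3 (33.3%, beside 28.1% of 16122 genes tested) and 8 higher (24.2%, beside 25.5%). In 15 of the 19 (78.9%, beside 57.1% of all genes with a called interaction) the values in the 2 comparisons had opposite signs, counting INTS1 and CPSF3L, whose JJN3 values of 0.07 and 0.0004 turned negative with total counts. There were 5 genes called in opposite directions (15.2%, beside 8.78% of the 12787 genes), of which INTS3 and PABPN1 lost their JJN3 calls when a THZ1 library was left out, as given above. INTS3 and CSTF1 fell in JJN3 but stood higher under the H929 THZ1 label, and CPSF1, NUDT21 and PABPN1 the reverse. The widest gaps were those of NUDT21 (1.80, edgeR adjusted p = 6.6e-10), PABPN1 (1.53) and INTS3 (-1.49). SYMPK (0.16, edgeR adjusted p = 0.265), INTS5 (0.03, edgeR adjusted p = 0.881), CPSF2 (-0.28) and CPSF3 (-0.29) were not called, the last 2 with adjusted p-values of 0.0192 and 0.0225 by edgeR but values within the limit of 0.5. Because the H929 labels differ in more than treatment, the interaction holds those differences too.

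**Figure D5:**
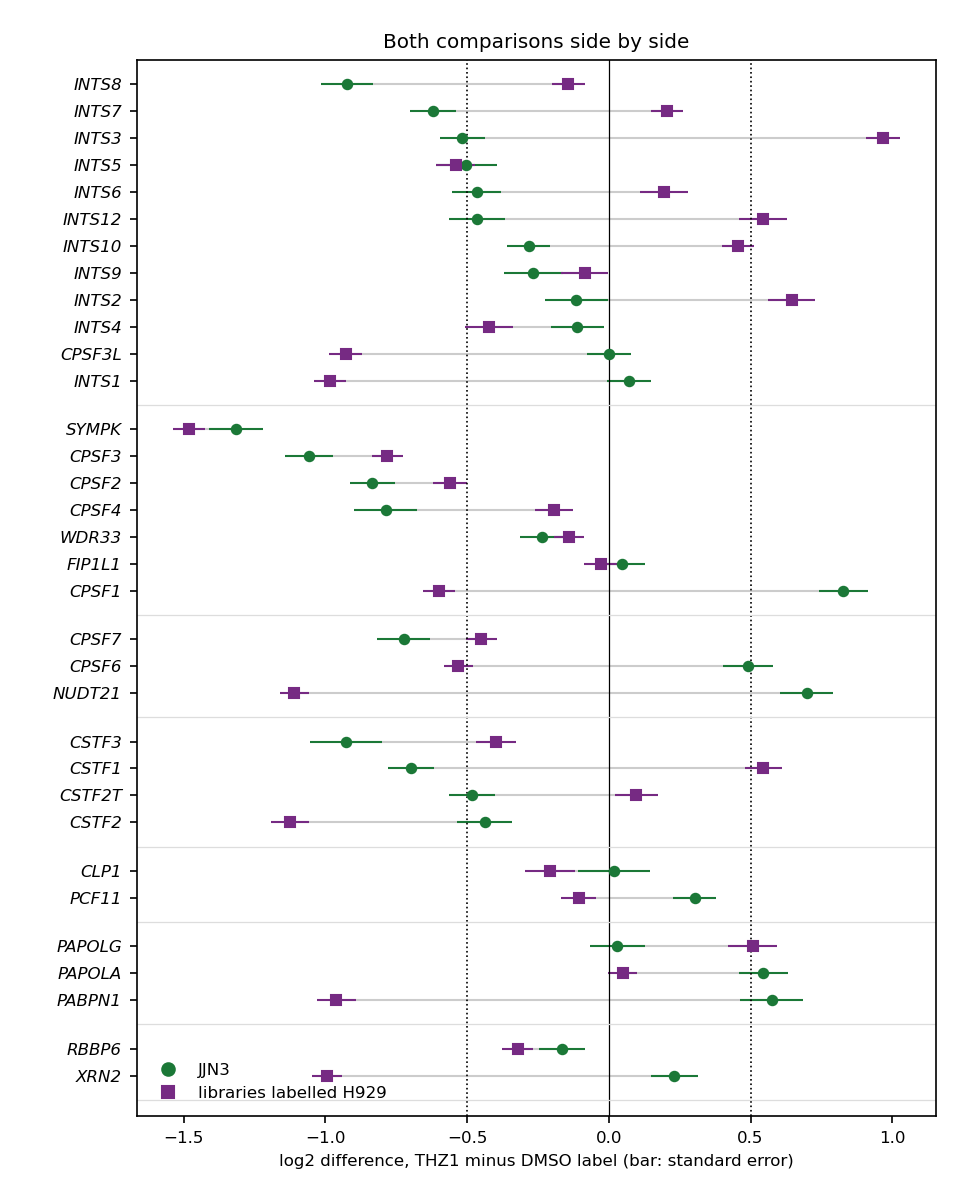
Log2 difference (x axis, THZ1 minus DMSO label, with the standard error) of each of the 33 genes in JJN3 (green circles) and between the libraries labelled H929 (purple squares), joined by a grey line. SYMPK, CPSF3, CPSF2 and INTS5 lie left of the dotted line at -0.5 in both, while NUDT21, PABPN1, CPSF1 and INTS3 have the longest lines, each crossing 0.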

How the data were processed

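Counts per Ensembl gene of 8 RNA-seq libraries were used as the authors deposited them, without normalization. Per the study's methods and processing notes, reads were aligned to hg19 with STAR 2.5.2a, with only reads of a single location kept, and counted with featureCounts. The strand setting and the treatment of reads in overlapping genes are not given in the sources used here. The authors also deposited tables of their DESeq2 1.12.4 comparisons (mean normalized signal, log2 fold changes, a test score, p-values). These served only to map symbols to gene IDs, and where a symbol had several IDs the one with the highest summed count was taken.

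Groups were taken from the sample labels. Each line was tested with edgeR 4.0.16 in R 4.3.3 (TMM, filterByExpr, quasi-likelihood test of the 4 libraries, Benjamini-Hochberg adjustment over all genes tested), and the lines were compared as an interaction over 8 libraries. The limits for a call were an adjusted p of 0.05 and a log2 fold change of 0.5 either way. Standard errors are the log2 fold change over the root of the F statistic. CPM used TMM-scaled totals over all 8 libraries. Exon lengths and spans came from GENCODE mapped to GRCh37, a version other than that of the counting. The exon length of a gene is that of all its annotated exons, merged over its transcripts. The tests were tried on simulated data. Total counts were 17476443 to 19194371, and 3 counts were the floor.

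The 33 genes, the 40 other pathway genes and the marker genes were chosen with earlier results of these data known. Counts per library are given for each gene called in JJN3, for CPSF3L, CPSF3, PAPOLA, PCF11 and XRN2, for the 3 largest called differences each way between the H929 labels and, of the other pathway genes, for the 3 largest called rises and falls in JJN3. Alternatives were DESeq2 1.42.0, RLE factors or total counts, no filter or at least 1 CPM in 2 libraries, 1 fit of all libraries, a block for the replicate number, limits of 0 and 1 on the log2 scale, and leaving out each library.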

Additional observations from a re-analysis of the deposited data

Results flagged for a closer look

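The response in JJN3 and the difference between the H929 labels were unlike, by the interaction test of edgeR, in 19 of the 33 genes (57.6%), a share near the 59.5% of the 12787 genes tested in all 3 fits. On the log2 scale, THZ1 minus DMSO in JJN3 minus the same between the H929 labels, 8 genes had positive values, with the cleavage and polyadenylation genes NUDT21 (1.80), PABPN1 (1.53), CPSF1 (1.42), CPSF6 (1.01) and CSTF2 (0.68), the exonuclease XRN2 (1.22), and the Integrator genes INTS1 (1.04) and CPSF3L (0.92). Of the 11 genes with negative values 7 were Integrator genes (58.3% of the 12, beside 28.1% of all genes tested), INTS3 (-1.49), INTS12 (-1.02), INTS7 (-0.84), INTS8 (-0.79), INTS2 (-0.77), INTS10 (-0.75) and INTS6 (-0.67). The other 4 were CSTF1 (-1.25), CPSF4 (-0.60), CSTF2T (-0.59) and CSTF3 (-0.54). FGFR3, MAF and the plasma cell genes differed between the H929 labels as well, with the counts given above, and their part in these values was not tested.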

How the results depend on the processing

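Signs changed for 19 of the values in JJN3 (5 genes), 3 between the H929 labels (2 genes) and 9 of the interaction (2 genes), none of them called and none beyond 0.0855 before the change, and no called value changed sign. Of the single-gene values, 337 of 363 in JJN3 kept their side of the limits over the alternatives, as did 354 of 363 between the H929 labels and 452 of 462 for the interaction. Limits of 0 and 1 on the log2 fold change moved the counts most. In JJN3 they gave 18 and 2 lower and 7 and 0 higher of the 33 genes, and 16 and 2 lower and 11 and 1 higher of the 40 other pathway genes. Between the H929 labels they gave 20 and 3 lower and 8 and 0 higher of the 33, and 17 and 4 lower and 18 and 2 higher of the 40. For the interaction, the limit of 1 gave 3 lower in JJN3. In the other direction NUDT21 (1.80), PABPN1 (1.53), CPSF1 (1.42), XRN2 (1.22), INTS1 (1.04) and CPSF6 (1.01) stayed beyond it. Total counts in place of TMM gave 15 lower and 2 higher in JJN3. Leaving out 1 library at a time, JJN3 gave 10 to 13 lower and 3 to 5 higher of the 33 and 7 to 9 and 6 to 7 of the 40. The H929 labels gave 11 to 13 and 4 to 5, and 9 to 11 and 9 to 11. The interaction gave 10 to 12 lower and 8 higher, with CPSF4 (-0.50) and CSTF3 (-0.35) losing their calls without JJN3 THZ1 replicate 1. The labels do not say that same-numbered libraries were paired. Such libraries deviated from their group means with correlations of 0.004 (JJN3) and -0.0189 (H929 labels), which with 2 libraries per group cannot exclude a pairing. With the replicate block the counts were 11 and 4 in JJN3, 12 and 5 between the H929 labels and 11 and 8 for the interaction, and 9 and 7, and 10 and 10, of the 40 genes. Apart from the counts named, the cause of these shifts was not tested.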

Other observations

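Some other pathway genes were singled out after their values were seen. DDX26B, the paralogue of INTS6 now named INTS6L, stood at 16.7 and 16.1 CPM with DMSO and 23.8 and 25.7 CPM with THZ1 in JJN3, a log2 fold change of 0.61 (edgeR adjusted p = 0.000713), where INTS6 had -0.47. Between the H929 labels it had 18.7 and 18.6 against 53.6 and 63.3 CPM, the largest rise of the 40 other pathway genes (1.65). RPRD1B and SCAF8, which like RPRD2, SCAF4 and PCF11 carry a domain that binds the CTD, were higher in JJN3. RPRD1B had 66.0 and 60.4 against 100.9 and 96.3 CPM (log2 fold change 0.66), and SCAF8 had 63.7 and 54.0 against 103 and 96.2 CPM (0.78). RPRD1A had 0.12 and was not called. These genes were picked for their values, and 20.6% of all genes tested were higher in JJN3. Between the H929 labels RPRD2 (0.54) was higher, RPRD1A (-0.55) and SCAF4 (-0.56) were lower, and RPRD1B (0.38) and SCAF8 (0.0031) were not called. PPP2R1A, the scaffold subunit of the phosphatase PP2A that Integrator carries, had 252.8 and 255 against 236 and 247 CPM in JJN3 (-0.06) and 438 and 444 against 126 and 109 CPM between the H929 labels (-1.91).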
